A study of Homo sapiens with 4 samples.

Results

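A hairpin against MAGE-A1 was compared with a scrambled hairpin in A375, an established line of human melanoma cells whose BRAF kinase is mutated and active. The comparison used 2 of the 4 RNA libraries of the series and every gene symbol in them. Of 23284 symbols, 13569 were at 1 RPKM or more in either library. RPKM is a read count scaled to transcript length and to library size. Symbols of small RNA genes (SNOR, SCARNA, RNU, and MIR followed by a digit) numbered 404 and were kept apart, which left 13165 genes. Of these, 12568 had a transcript length in the annotation.

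The scramble library came from A375 cells stably transfected with the pRNAT-scramble vector, and the hairpin library from cells stably transfected with pRNAT-shMAGE-A1. The remaining libraries came from cells stably carrying the pcDNA3 vector (vector library) or pcDNA3-MAGE-A1 (overexpression library), and they are given here for reference. All 4 were poly(A)-enriched RNA sequenced by Ion Torrent. Each group held 1 library, and the labels do not say whether a transfected culture was a clone or a pool. No result below could be checked against replicates or tested, and every comparison is between libraries. Where 4 RPKM values follow a gene, they are in the order vector, overexpression, scramble and hairpin library unless the sentence says otherwise. Estimated depth was 16350000 reads in the scramble library and 19630000 in the hairpin library. Small RNA symbols made up 45.9%, 86.9%, 29.04% and 77.5% of the summed RPKM in the vector, overexpression, scramble and hairpin libraries, so the construct libraries stood apart from the controls in this.

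MAGE-A1 is a cancer-testis antigen, a protein that adult cells outside the germ line rarely make and that many tumours switch on. It belongs to the MAGE family, whose shared domain can bind and steer E3 ubiquitin ligases. A short hairpin RNA is processed by the microRNA machinery and directs the cutting of RNAs that match its guide strand. The series title names c-JUN, IL8 and ARHGAP29 as genes affected by MAGE-A1.

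MAGEA1, the targeted gene on chromosome X, was low in the control already. It was at 1.803 RPKM with the empty vector, 126 with the overexpression construct, 0.767 with the scrambled hairpin and 0.473 with the MAGE-A1 hairpin. The estimated reads were 19 in the scramble library and 14 in the hairpin library, a ratio of 0.614 (95% exact conditional interval 0.285 to 1.29). That interval includes 1: no drop of MAGEA1 below the scramble library could be detected with so few reads. Relative to the vector library, which had 67 reads, the hairpin library stood at 0.261 (0.136 to 0.469) and the scramble library at 0.425 (0.241 to 0.717). Intervals here and below cover counting error only.

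Across all genes, log2((RPKM + 1) in the hairpin library / (RPKM + 1) in the scramble library) had a median of 0.03, with quartiles at -0.49 and 0.55. Because of the added 1, ratios of weakly expressed genes are understated. "Higher" and "lower" below mean past 2-fold, a log2 ratio of 1 or more in size. By that measure 1340 of 13165 genes (10.2%) were higher and 1121 (8.52%) lower, so 54.4% of the genes past 2-fold were higher. With both libraries rescaled to a common upper quartile the median of all genes moved to -0.13, and the share higher was 34.7% (6.59% of all genes higher, 12.4% lower). With the vector library as control, 12.1% of 13192 genes were higher and 11.3% lower. For scale, the scramble library set against the vector library, neither with a MAGE-A1 construct, had 78 of 12971 genes (0.601%) higher and 50 (0.385%) lower.

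Short transcripts stood higher and long transcripts lower in the hairpin library. At the short end, the median log2 ratio of 80 genes no longer than 500 nt was 1.32, and 66.3% of them were higher. The medians then went down with length, through 0.80 for 414 genes up to 1000 nt, 0.60 for 1844 genes up to 2000 nt, 0.18 for 4731 genes up to 4000 nt and -0.28 for 4427 genes up to 8000 nt. Above 8000 nt the median of 1072 genes was -0.58, with 26.5% lower and 1.87% higher. In the same bins the scramble library against the vector library had medians from 0.35 down to -0.10. The overexpression library against the vector library was at 0.68 up to 500 nt, at -0.06 up to 1000 nt and at 0.10 above 8000 nt, without the downward trend past the shortest bin. A second value was therefore computed for each gene, its log2 ratio less the median of itself and its 200 nearest neighbours in transcript length, called the like-length ratio below. Length was that of the longest annotated transcript, which need not be the one expressed. On the like-length scale 806 of 12568 genes (6.41%) were higher and 791 (6.29%) lower. Of 1270 genes with a length that were higher as measured, 553 were higher on both scales, and of 1086 lower genes, 555 were lower on both. The shares of all genes on each scale are the background against which the list counts below are to be read.

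**Figure D1:**
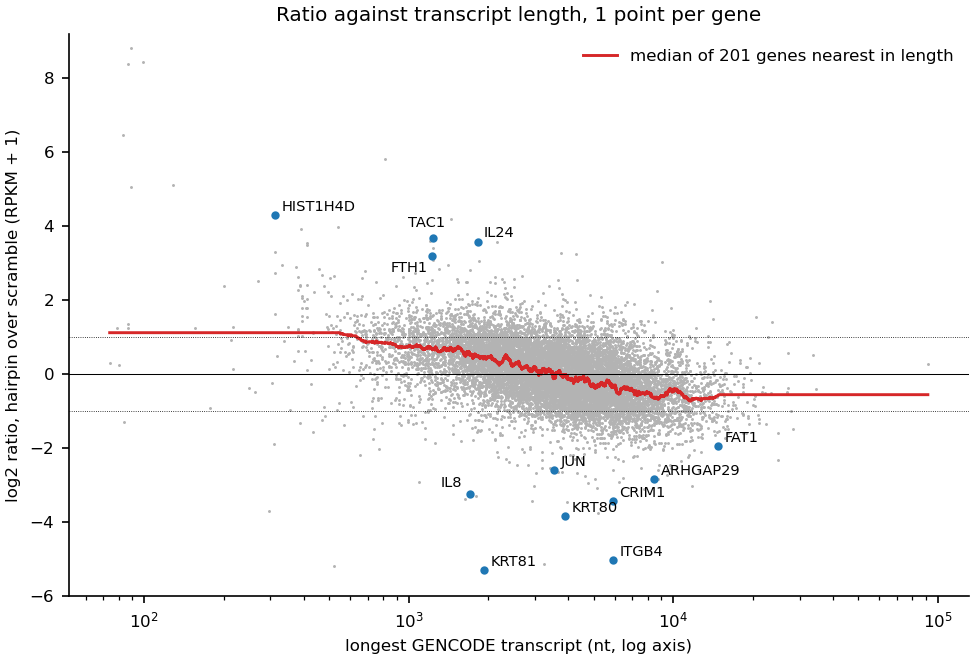
The log2 ratio of each gene in the hairpin over the scramble library (vertical axis) is plotted against its longest annotated transcript in nt (horizontal log axis), with 1 grey point per gene, small RNA symbols left out and 12 genes in blue. The red line, the median of a gene and its 200 nearest neighbours in length, goes from above 1 at the short end to below 0 past 4000 nt, and KRT81, ITGB4, KRT80 and IL8 lie far below it.

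The promoters of JUN, IL8 and IL1A are shown because JUN codes for a subunit of AP-1, a dimeric transcription factor whose textbook site is TGACTCA, and because IL8 and IL1A carry that site in the window searched. The sequences are the 250 nt before the annotated start, from RefSeq (GRCh38.p14), 5′ to 3′ on the gene's strand, with TGACTCA, TGACATCA and TATAAA in capitals. IL8 (CXCL8) is at chr4:73740319-73740568 on the plus strand, JUN at chr1:58784048-58784297 on the minus strand and IL1A at chr2:112784494-112784743 on the minus strand.
IL8: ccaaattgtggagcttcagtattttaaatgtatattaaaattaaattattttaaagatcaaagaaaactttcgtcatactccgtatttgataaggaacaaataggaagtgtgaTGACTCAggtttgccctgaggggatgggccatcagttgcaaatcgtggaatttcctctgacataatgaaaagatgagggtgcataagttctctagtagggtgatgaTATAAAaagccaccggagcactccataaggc
JUN: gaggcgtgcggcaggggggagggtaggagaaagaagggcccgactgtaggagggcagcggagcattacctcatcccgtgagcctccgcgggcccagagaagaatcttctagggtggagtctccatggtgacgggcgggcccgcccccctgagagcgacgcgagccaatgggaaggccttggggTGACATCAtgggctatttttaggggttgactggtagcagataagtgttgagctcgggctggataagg
IL1A: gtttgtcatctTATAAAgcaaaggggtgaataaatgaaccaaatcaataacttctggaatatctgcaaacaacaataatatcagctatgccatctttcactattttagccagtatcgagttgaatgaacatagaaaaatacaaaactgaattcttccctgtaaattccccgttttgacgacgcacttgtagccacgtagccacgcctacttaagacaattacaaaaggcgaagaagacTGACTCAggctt
The match in IL8 begins 137 nt before the start, with TATAAA 31 nt before it. In JUN a TGACATCA begins 67 nt before the start. In IL1A a TGACTCA begins 12 nt before the start and TATAAA 239 nt before it, and the same AP-1 site on the opposite strand, TGAGTCA, begins 38 nt after the start, outside the stretch shown. The same search found none of these letters in the window of ARHGAP29.

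Each motif was searched on both strands from 250 nt before to 50 nt after the start, and no motif holds another. Of 9803 promoters of genes with a like-length ratio, 3.01% held TGACTCA, 1.44% TGACATCA and 5.36% TATAAA. Among the promoters of the 587 lower genes on the like-length scale, 26 (4.43%) held TGACTCA, 17 (2.90%) TGACATCA and 59 (10.1%) TATAAA. Among the 598 higher genes the shares were 3.18%, 2.01% and 7.02%. A match is a description of letters, not of a bound site.

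JUN was at 11.03 RPKM with the empty vector, 41.99 with the overexpression construct, 15.4 with the scrambled hairpin and 1.73 with the MAGE-A1 hairpin. The hairpin library was thus the lowest of the 4 and the overexpression library the highest. Its log2 ratio was -2.59, its like-length ratio -2.49 and its ratio of estimated reads 0.112 (95% interval 0.09102 to 0.136). IL8, a chemokine that attracts neutrophils, was at 42.5, 133, 62.5 and 5.75 RPKM, again lowest with the hairpin. Its log2 ratio was -3.23 and its like-length ratio -3.75, larger in size because transcripts of its length stood above 0. ARHGAP29, a GTPase-activating protein for RhoA, was at 6.84, 20.1, 11.9 and 0.793 RPKM, with a log2 ratio of -2.85 and a like-length ratio of -2.21. These 3 genes were picked by the study itself, which means that their direction is no independent evidence. In bulk RNA, fewer cells of a type and less RNA per cell cannot be told apart, here and for every gene below.

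Of the 12 AP-1 factors measured, 3 were lower as measured, JUN, FOS (43.2 and 18.1 RPKM in the scramble and hairpin libraries) and FOSL2 (17.4 and 6.93 RPKM), and 0 higher. FOSL2 passed neither at like length (-0.86) nor against the vector library, where its log2 ratio was -0.17. At like length 2 factors were lower and 0 higher, and against the vector library 2 were lower and 2 higher. The list median was 0.49 as measured and 0.08 at like length. FOSL1, the most abundant AP-1 gene here, was at 158 and 264 RPKM, a log2 ratio of 0.74. Of genes that report output of the MAPK pathway, 4 of 25 were higher and 4 lower as measured, and 1 higher and 3 lower at like length, with a median of 0.01 that became -0.18 with the common upper quartile and -0.08 against the vector library. EGR1, an immediate early transcription factor, was at 25.99 and 62.2 RPKM, and the ephrin receptor EPHA2 at 136 and 59.6 RPKM. EPHA2 was within 2-fold against the vector library, at a log2 ratio of -0.39.

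The cytokines divided into members far lower and members far higher. Of 13 measured, 5 were lower and 2 higher as measured, and 6 and 2 at like length. IL1B, a fever-inducing interleukin, was at 4.35, 4.63, 13.9 and 0.432 RPKM (log2 ratio -3.38). CXCL1, a chemokine that shares a receptor with IL8, was at 47.6, 37.3, 63.9 and 7.52 RPKM (-2.93). In both the hairpin library was below the other 3. IL1A was at 3.04 and 0.205 RPKM in the scramble and hairpin libraries, and its log2 ratio of -1.74 became -0.96 against the vector library. IL24, a cytokine of the IL10 family, went the other way at 28.9, 1622, 23.2 and 289 RPKM (3.58). GDF15, a stress-induced relative of TGF-beta, was at 5.89, 161, 5.79 and 81.5 RPKM (3.60). For IL24 and GDF15 both construct libraries stood above both controls. The list median of -0.51 changed sign against the vector library, to 0.12.

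**Figure D2:**
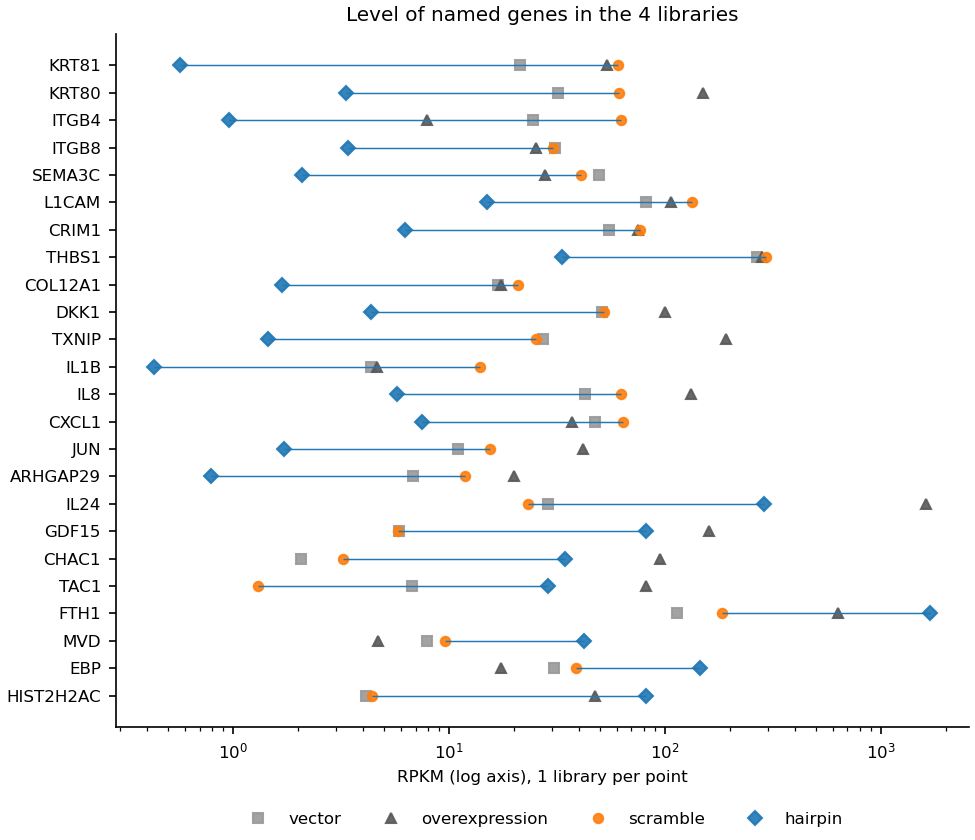
RPKM (horizontal log axis) of 24 genes in each of the 4 libraries, with 1 symbol per library and a line from the scramble to the hairpin library. From KRT81 to ARHGAP29 the hairpin symbol is the lowest of the 4, and in FTH1, MVD, EBP and HIST2H2AC it is the highest.

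Integrins, the paired receptors that bind cells to matrix, were lower for several subunits and higher as measured for 0. Of 20 measured, 7 were lower as measured (median -0.71) and 6 lower and 1 higher at like length (median -0.64). ITGB4, the beta 4 subunit that pairs with alpha 6 to bind laminin, was at 24.5 RPKM with the empty vector, 7.93 with the overexpression construct, 62.9 with the scrambled hairpin and 0.954 with the MAGE-A1 hairpin. From reads its ratio was 0.0152 (95% interval 0.0124 to 0.0184). ITGA6, its alpha partner, was at 88.5, 82.4, 94.1 and 19.1 RPKM in the same order, a log2 ratio of -2.25 (-2.04 at like length). ITGB8 was at 30.8, 25.4, 30.4 and 3.400 RPKM and ITGAV, the alpha chain that pairs with it to activate TGF-beta, at 27.1, 31.5, 27.3 and 4.95 RPKM. In ITGA6, ITGB8 and ITGAV the other 3 libraries lay close together and the hairpin library alone stood low. ITGA4 (log2 ratio -2.18) and ITGA2 (-1.65) were lower as well. The abundant ITGA3, at 122 and 112 RPKM, was within 2-fold.

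Some chains of the matrix that these receptors bind were lower as well. Of 9 laminin chains, 3 were lower, and of 19 collagen chains 9 were lower and 1 higher. At like length these counts were 2 lower and 1 higher laminins, and 6 lower and 2 higher collagens. Their medians moved from -0.58 to -0.15 and from -0.45 to -0.06. LAMC1, the gamma 1 chain found in most laminins, was at 220.1, 181, 243 and 74.9 RPKM (log2 ratio -1.69, like length -1.18). COL12A1, which decorates collagen fibrils, was at 16.95, 17.4, 20.8 and 1.68 RPKM (-3.03, like length -2.34). COL5A2, a chain of fibril-nucleating collagen V, was at 88.2, 46.4, 88.2 and 18.3 RPKM (-2.21). Of 37 other matrix glycoproteins, 12 were lower and 4 higher, and 7 and 5 at like length. THBS1 (thrombospondin 1) was at 269, 281, 294 and 33.3 RPKM, with the first 3 libraries within a narrow range. FN1 (fibronectin) was at 105, 64.02, 52.2 and 11.9 RPKM and the scramble library was itself below the vector library. MGP, an inhibitor of calcification, was higher, at 9.56, 2.77, 9.52 and 79.4 RPKM (2.94).

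Matrix proteases and their inhibitors moved in either direction. Of 24 measured, 7 were lower and 3 higher, and 6 and 3 at like length, while against the vector library 4 were lower and 3 higher. ADAM19, a membrane sheddase, was at 31.5 and 5.32 RPKM in the scramble and hairpin libraries and MMP16, a membrane-anchored metalloprotease, at 39.4 and 10.4 RPKM. ADAMTS4, which cuts aggrecan, was at 2.31, 6.09, 8.695 and 0.678 RPKM. Its log2 ratio of -2.53 became -0.98 against the vector library, where it did not pass. TIMP1, a secreted inhibitor of metalloproteases, was at 151, 264, 164 and 681 RPKM, a log2 ratio of 2.05. MMP1, an interstitial collagenase, was higher too, at 0.358 and 5.35 RPKM in the scramble and hairpin libraries. SERPINE2, the most abundant gene of this list, was at 1533 and 1537 RPKM, a log2 ratio of 0.00.

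Keratins, desmosome genes and cadherins were lower for many members. Of 16 keratins and desmosome genes, 8 were lower and 1 higher as measured (median -1.15), and 8 lower at like length (median -0.97). Against the vector library 4 of 16 were lower. KRT81, a hair keratin, was at 21.3 RPKM with the empty vector, 53.9 with the overexpression construct, 60.6 with the scrambled hairpin and 0.566 with the MAGE-A1 hairpin, a ratio from reads of 0.00924 (95% interval 0.00555 to 0.0145). KRT81 shares long stretches with other hair keratins, so its reads are uncertain. KRT80 was at 32.01, 150.2, 61.6 and 3.34 RPKM (-3.85). KRT8, a keratin of simple epithelia, was at 27.3, 18.4, 59.2 and 13.9 RPKM, and its log2 ratio of -2.02 became -0.93 against the vector library, since the scramble library itself was the highest. Of 17 cadherins, 8 were lower and 0 higher, with 4 lower at like length. These are long transcripts, and the median moved from -0.99 to -0.51. FAT1, a giant protocadherin, was at 36.1, 60.2, 34.8 and 8.31 RPKM (like-length ratio -1.37).

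Genes of the invasive melanoma state and targets of YAP and TEAD, the transcription factors of the Hippo pathway, held many lower members. Of 32 invasive-state genes, 16 were lower and 1 higher (median -1.06), and 13 and 2 at like length (median -0.81). AXL, a receptor tyrosine kinase, was at 53.7, 347, 80.6 and 21.9 RPKM (log2 ratio -1.84). CAV1, the coat protein of caveolae, was at 74.2, 75.7, 97.1 and 18.6 RPKM (-2.32). The 6 caveolae genes measured had 2 lower and 1 higher (2 and 0 at like length), and their median of -0.22 was 0.19 against the vector library. Of 28 YAP and TEAD targets, 11 were lower and 0 higher, and 9 and 0 at like length. CTGF (CCN2), a secreted matricellular protein, was at 39.5, 108, 50.4 and 9.41 RPKM (-2.30). AJUBA and AMOTL2, regulators of the Hippo kinases, were at 16.1 and 2.48 RPKM and at 50.9 and 9.81 RPKM in the scramble and hairpin libraries. CRIM1, a membrane protein that binds BMPs, was at 54.98, 74.8, 77.1 and 6.23 RPKM, a ratio from reads of 0.0807 (95% interval 0.0746 to 0.0872). CTGF, AXL and THBS1 stand in more than 1 of these lists, which are thus not separate evidence.

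Guidance cues and their receptors had 16 of 42 lower and 0 higher as measured, and 12 lower and 5 higher at like length. SEMA3C, a secreted semaphorin, was at 49.5, 27.8, 40.9 and 2.09 RPKM, a ratio from reads of 0.0511 (95% interval 0.0441 to 0.0588). L1CAM, an adhesion molecule of axons, was at 81.4, 107, 134 and 15.02 RPKM (-3.07). SEMA3F was at 5.58, 6.07, 19.9 and 2.35 RPKM, with the scramble library above the other 3 and a log2 ratio of -0.97 against the vector library. NRP1, the co-receptor of class 3 semaphorins, was at 19.6 and 5.47 RPKM in the scramble and hairpin libraries.

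Receptors and inhibitors of the Wnt, Notch and TGF-beta pathways included lower members, and the lists differed in how far they moved at like length. For scale, 10.2% of all genes were higher and 8.52% lower as measured, and 6.41% and 6.29% at like length. The median transcript lengths of these lists fall between 4000 and 8000 nt, where 3.55% of all genes were higher and 12.2% lower as measured. Of 23 Wnt genes, 7 were lower and 1 higher, against 3 and 1 at like length. DKK1, a secreted Wnt inhibitor, was at 51.1, 99.8, 52.1 and 4.35 RPKM (log2 ratio -3.31, like length -3.82). Of 15 Notch genes, 4 were lower and 1 higher, with the receptors NOTCH2 at 56.2 and 11.1 RPKM and NOTCH1 at 19.2 and 4.51 RPKM in the scramble and hairpin libraries. At like length 4 were lower and 0 higher, and the Notch median went from -0.27 to -0.36. Of 24 TGF-beta and BMP genes, 6 were lower and 4 higher, against 2 and 2 at like length, and the median of -0.15 was 0.07 against the vector library. TGFBR2, the type II receptor, was at 36.5, 24.3, 46.5 and 6.02 RPKM (-2.76), while FST (follistatin), which traps activins, was at 54.98, 1011, 72.8 and 256 RPKM (1.80).

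Cell cycle genes were mostly within 2-fold. Of 15 G1 cyclins, kinases and inhibitors, 5 were lower and 0 higher, and 4 and 0 at like length (median -0.71). CCNE2, cyclin E2, was at 7.96, 3.27, 7.27 and 1.96 RPKM, and the kinase CDK6 at 49.4, 114, 40.3 and 14.2 RPKM. CDK6 was within 2-fold at like length (-0.71). Of 40 S phase genes, 1 was lower and 0 higher, with a median of -0.15 that was 0.05 against the vector library. Of 41 mitosis genes, 6 were lower and 1 higher, and 6 and 0 at like length. ANLN (anillin), which organizes the cytokinetic ring, was at 60.7, 28.2, 66.6 and 16.05 RPKM (-1.99) and the mitotic kinase CDK1 at 54.3, 39.5, 49.9 and 22.7 RPKM. In ANLN and CDK1 the hairpin library was the lowest of the 4. Of 27 p53 targets, 3 were higher and 1 lower (median -0.01, and 0.06 at 5 RPKM or more). At like length 1 was higher and 2 lower, and against the vector library 3 were higher and 5 lower. Of 19 BCL2 family genes, 4 were higher and 0 lower as measured, but 1 higher and 1 lower at like length and 2 higher and 1 lower with the common upper quartile. Their median of 0.07 was -0.03 at like length, -0.09 with the common upper quartile and -0.19 against the vector library. BCL2A1, an anti-apoptotic member, was at 0.533 and 5.28 RPKM in the scramble and hairpin libraries.

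The integrated stress response, in which ATF4 and CHOP raise amino acid and redox genes, had 7 of 26 members higher and 1 lower, and 5 and 0 at like length (median 0.47). CHAC1, a glutathione-degrading enzyme, was at 2.06, 95.1, 3.24 and 34.5 RPKM, a ratio from reads of 10.7 (95% interval 8.600 to 13.5). TRIB3, a pseudokinase induced by CHOP, was at 23.2, 291, 20.9 and 111 RPKM (2.36). DDIT3, the gene of CHOP, was at 32.02, 622, 34.2 and 169 RPKM (2.27). In all 3 the controls lay close together, the hairpin library above them and the overexpression library highest. ATF4 was at 249 and 534 RPKM in the scramble and hairpin libraries, and its log2 ratio of 1.099 was 0.64 at like length and 0.91 with the common upper quartile, within 2-fold on both. Of 27 heat shock genes, 3 were higher and 1 lower as measured, and 1 and 1 at like length.

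Cholesterol synthesis genes were higher or within 2-fold. Of 26 measured, 8 were higher and 0 lower (median 0.67), and 5 and 0 at like length (median 0.49). MVD, which makes isopentenyl diphosphate, was at 7.92, 4.705, 9.59 and 42.2 RPKM, a ratio from reads of 4.402 (95% interval 3.92 to 4.96). EBP, a sterol isomerase, was at 30.6, 17.5, 38.6 and 146 RPKM (1.89) and DHCR7, the last enzyme of the pathway, at 25.96, 20.6, 33.8 and 110.1 RPKM (1.68). In these 3 the overexpression library was the lowest and the hairpin library the highest. Fatty acid synthesis had 2 of 18 higher and 0 lower, and its median of 0.08 became -0.11 with the common upper quartile. Glycolysis and hypoxia genes had 1 of 32 higher and 3 lower, and their median of 0.08 became -0.10 with that scaling. SLC2A1, the main glucose transporter, was at 84.2 and 38.8 RPKM in the scramble and hairpin libraries and within 2-fold against the vector library (-0.66).

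The respiratory chain and the ribosome are built from short transcripts, and they stood high as measured. The proteasome stood high as well, with a longer median transcript of 2737 nt. Of 38 complex I genes 21 were higher, of 13 genes of complexes II and III 3, of 12 complex IV genes 6 and of 16 ATP synthase genes 10, with 0 lower in each list. At like length the higher counts were 7, 1, 1 and 5, with medians of 0.47, 0.28, 0.31 and 0.85. ATP5E, the epsilon subunit of ATP synthase, was at 232, 219, 199 and 1169 RPKM (2.55, like length 2.50). NDUFS8, an iron-sulfur subunit of complex I, was at 42.9, 58.5, 51.4 and 205 RPKM (1.98, like length 1.91). Both ratios hardly moved at like length. The median longest transcript was 1915.5 nt for ATP synthase and 1938.5 nt for large-subunit ribosomal proteins. Where a shorter transcript is the one expressed, the like-length values here and for the ribosome are corrected too little. How often that holds was not tested.

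Of 46 large-subunit and 31 small-subunit ribosomal proteins, 21 and 20 were higher, with 0 lower. At like length 10 and 6 were, with medians of 0.44 and 0.61. RPLP2, an acidic stalk protein, was at 1093, 1354, 797 and 3323 RPKM (2.06). RPL21 was at 55.7 RPKM in the hairpin library and at 0.0191, 0.0276 and 0.0155 in the other 3 (vector, overexpression, scramble). A gene that every cell uses is near 0 in 3 libraries there, so these levels may be failed estimates, and ribosomal protein genes have many processed copies. Of 76 mitochondrial ribosomal proteins 27 were higher (8 at like length), of 34 proteasome subunits 9 (3) and of 23 tRNA synthetases 2 (3). The like-length medians of these lists were 0.29, 0.47 and 0.48. With the common upper quartile the higher counts were 12 and 16 for the ribosomal subunits, 15 for the mitochondrial ribosome and 4 for the proteasome. MRPL21 was at 50.9 and 229.6 RPKM in the scramble and hairpin libraries and the proteasome subunit PSMD13 at 93.5 and 307 RPKM.

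Both ferritin chains and some lysosome genes were higher as measured. Of 6 metallothionein and ferritin genes measured, 5 were higher, and 2 at like length. FTH1, the ferritin heavy chain that stores iron, was at 114 RPKM with the empty vector, 633 with the overexpression construct, 184 with the scrambled hairpin and 1692 with the MAGE-A1 hairpin. Its log2 ratio was 3.197, its like-length ratio 2.54 and its ratio from reads 9.22 (95% interval 8.88 to 9.56). FTL, the light chain, was at 959.6, 1105, 916 and 3151 RPKM (1.78, like length 0.97). Of 32 lysosome genes, 7 were higher and 0 lower (3 and 0 at like length), with the protease CTSD at 101 and 312 RPKM and CTSK at 4.997 and 20.7 RPKM in the scramble and hairpin libraries. Of 29 large cytoskeletal and scaffold genes, 15 were lower and 0 higher, and 4 of 28 were lower at like length (median -0.53).

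Several lists had few members past 2-fold. The cancer-testis antigens outside the MAGE-A family, also given here, were not among them. Tubulins had 1 of 11 higher, actin and its small regulators 1 of 31, and S100 proteins and annexins 2 of 18, with 0 lower in each. Their medians of 0.22, 0.24 and 0.37 changed sign at like length, to -0.12, -0.03 and -0.20. SR proteins and hnRNPs had 3 of 37 higher and 1 lower, with a median of 0.15 that became -0.04 with the common upper quartile. The small RNA machinery had 1 of 17 lower and 0 higher, and its median of -0.22 became 0.02 at like length. Interferon-induced genes had 4 of 33 higher and 3 lower as measured, and 1 higher and 3 lower at like length, with ISG20, an exonuclease, at 137 and 357 RPKM and OAS3, an antiviral sensor, at 21.8 and 7.51 RPKM in the scramble and hairpin libraries. Class I antigen presentation had 1 of 19 higher and 1 lower, and 0 and 1 at like length. Of the MAGE-A antigens, 6 were measured, with 1 lower and 0 higher and a median of -0.10 as measured, and 2 lower at like length. MAGEA4, the most abundant member, was at 621, 507, 560.4 and 371 RPKM, lowest with the hairpin, within 2-fold as measured (log2 ratio -0.59) and lower at like length (-1.10). Reads of these paralogs cannot be split with certainty. Other cancer-testis antigens had 6 of 16 higher and 2 lower, and 3 higher and 1 lower at like length, where their median of 0.67 became -0.01. PAGE1 was at 1.05, 0.854, 0.395 and 7.38 RPKM in the 4 libraries, and members of these families share sequence. Genes used by every cell had 5 of 37 higher and 0 lower, with a median of 0.31, and 2 higher and 1 lower at like length, with a median of 0.15.

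**Figure D3:**
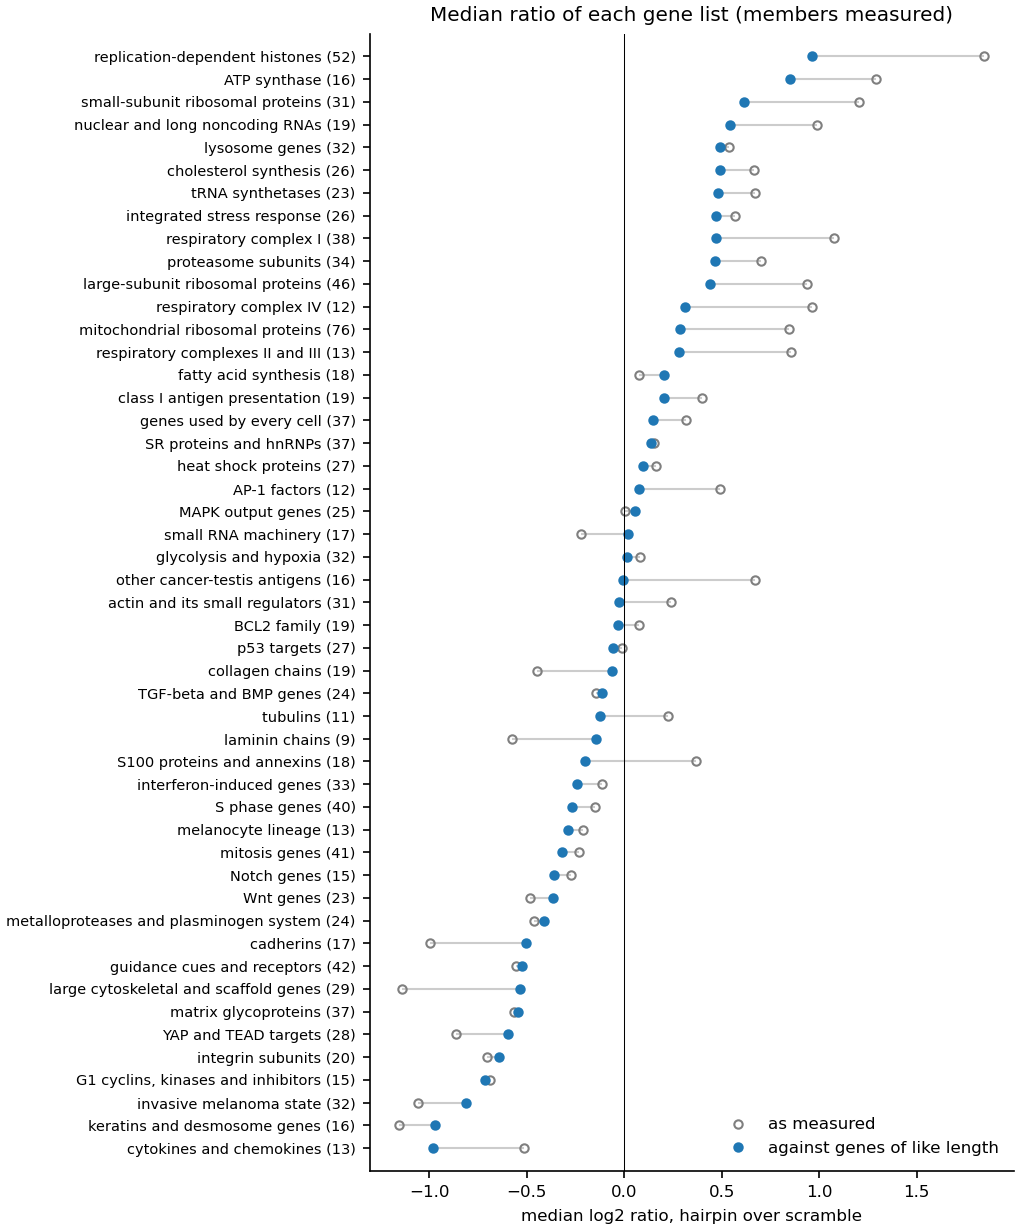
Median log2 ratio of hairpin over scramble (horizontal axis) for each gene list described here with at least 8 measured members, with that number in brackets. Open circles are ratios as measured, filled circles like-length ratios. Histones and ATP synthase lie at the top and cytokines, keratins and the invasive melanoma state at the bottom, and lists of short or long transcripts such as complex I or the cadherins move toward 0 at like length.

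RNAs that end without a poly(A) tail were far higher in the hairpin library, although poly(A) RNA had been selected. Among small RNA symbols 348 of 404 (86.1%) were higher and 35 (8.66%) lower, with a median log2 ratio of 4.92. All C/D box small nucleolar RNAs but 3 were higher (160 of 163, median 5.67), as were 94 of 94 H/ACA box RNAs (5.44), 24 of 24 Cajal body RNAs (4.46) and 5 of 5 other structural RNAs. Between the scramble and vector libraries the C/D and H/ACA medians were -1.45 and -0.71. SNORD5 was at 278 and 23699.7 RPKM in the vector and overexpression libraries, listed at 0 in the scramble library and at 20672 in the hairpin library. RNU12, an RNA of the minor spliceosome, was at 19.2, 1181, 51.9 and 4541 RPKM. Both construct libraries were high and both controls low. Shares of summed RPKM are no shares of reads, because a few reads give a very short gene a large RPKM. The summed RPKM of all other genes was 393014 and 570786. Replication-dependent histones, whose RNAs end in a stem-loop, had 45 of 52 higher and 0 lower (median 1.85), and 25 higher at like length. HIST2H2AC was at 4.14, 47.7, 4.41 and 81.4 RPKM, a single value that is uncertain because histone genes resemble each other. TERC, the telomerase RNA, was at 1.47, 12.99, 0.734 and 26.2 RPKM. VTRNA2-1, a small noncoding RNA, was at 49.3, 3463, 73.9 and 2602 RPKM. TERC and the VTRNA genes are not covered by the small RNA symbols and count among the other genes. Nuclear and long noncoding RNAs had 8 of 19 higher and 0 lower as measured, and 3 higher and 1 lower at like length. MALAT1, a long RNA kept in nuclear speckles, was at 535, 1076, 425 and 2019 RPKM (2.24, like length 2.91). The part of RNA selection in the other results was not tested.

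Of 118 microRNA genes, 65 were higher and 35 lower (median 1.96). The values are for the precursor gene and do not separate its arms, and the number of reads behind them is unknown. Mature sequences are shown for the highest and the lowest microRNA gene with RefSeq entries and for let-7d, named among the highest genes, with the seed (bases 2 to 8) in capitals (RefSeq, GRCh38.p14).
hsa-miR-21-5p: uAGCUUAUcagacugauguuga
hsa-let-7d-5p: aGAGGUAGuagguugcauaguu
hsa-miR-4427: uCUGAAUAgagucugaagagu
The genes lie at chr17:59841273-59841294, chr9:94178841-94178862 and chr1:233624195-233624215 (mature arm, plus strand), and the 3 seeds differ. MIR21 was at 58.8 and 554 RPKM in the vector and overexpression libraries, listed at 0 in the scramble library and at 485 in the hairpin library. MIRLET7D was at 27.8 and 52.99, listed at 0 and at 335, in that order. It counts among the other genes, as its symbol has no digit after MIR. MIR4427 was at 224 in the scramble library and listed at 0 in the other 3.

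Among the genes lowest and highest on all of the scales used for naming, several belong to no list above. In all, 373 genes were lower and 429 higher past 2-fold as measured, at like length and against the vector library, with at least 5 RPKM in either library. There were 9774 genes at that level. This is an upper bound for the eligible genes, since LOC symbols and genes without a length were left out. TXNIP, an arrestin-like inhibitor of thioredoxin and glucose uptake, was at 27.2, 191, 25.4 and 1.46 RPKM in the 4 libraries, with the controls alike and a ratio from reads of 0.0574 (95% interval 0.0451 to 0.0723). C19orf33 was at 10.95, 33.7, 43.2 and 0.205 RPKM, with 1 read estimated in the hairpin library and a ratio of 0.00369 (95% interval 9.29e-05 to 0.0207). TMPRSS15 (enteropeptidase) was at 4.800, 3.52, 10.2 and 0.0136 RPKM, also with 1 read estimated in the hairpin library and a ratio of 0.00133 (95% interval 3.35e-05 to 0.00742). In both the hairpin library was at the limit of detection. ANKRD30BL was at 33.9 in the scramble library and listed at 0 in the hairpin library. TAC1, the precursor of substance P, was at 6.75, 82.1, 1.298 and 28.6 RPKM (3.69), and PPP1R27, a regulatory subunit of protein phosphatase 1, at 0.136, 0.396, 0.918 and 34.3 RPKM (4.20).

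The genes of chromosome 11 stood higher as a group than those of any other chromosome. For this, protein-coding genes at 2 RPKM or more in either library were compared with genes of like length and GC content, and chromosomes came from RefSeq. The 638 genes of chromosome 11 had a median of 0.30, and 73.2% of them were above 0. On the other chromosomes the median ran from -0.12 to 0.09 and the share above 0 from 42.9% to 57.4%. As measured, 169 genes of chromosome 11 (26.5%) were higher and 23 (3.61%) lower, against 918 (9.02%) and 979 (9.62%) of 10173 genes elsewhere. In the scramble over the vector library chromosome 11 was at -0.01, and in the overexpression over the vector library at 0.03. The hairpin over the vector library gave 0.30, but shares the hairpin library. A shift of a whole chromosome was not limited to the hairpin library. The genes of chromosome 13 were at 0.15 in the scramble over the vector library (73.6% above 0) and at 0.40 in the overexpression over the vector library (73.9% above 0). In the hairpin library they were at 0.09 over scramble (57.4% above 0) and at 0.25 over vector.

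**Figure D4:**
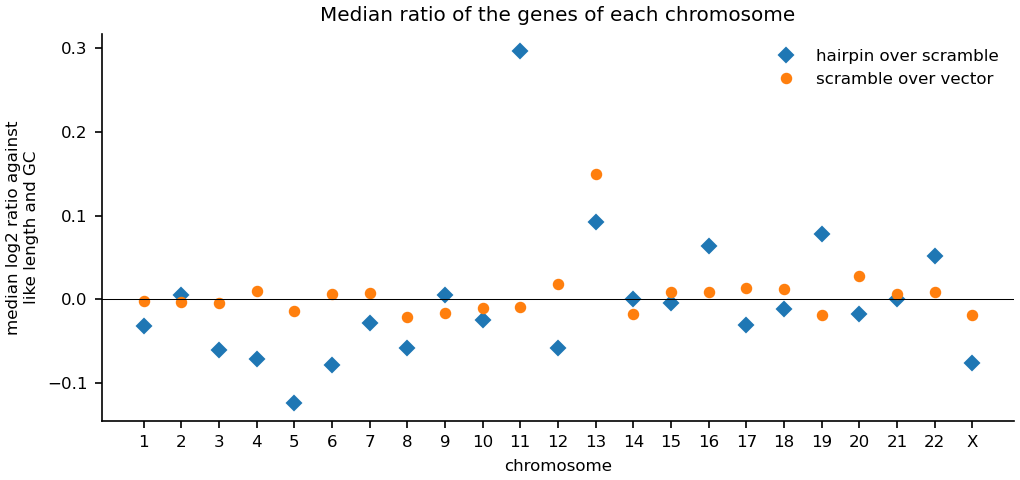
Median log2 ratio of the genes of each chromosome after comparison with genes of like length and GC content (vertical axis), for the hairpin over the scramble library (blue diamonds) and the scramble over the vector library (orange circles). Chromosome 11 is at 0.30 in the first and at -0.01 in the second, where chromosome 13 is highest at 0.15.

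The shift ran along the chromosome. When neighbouring genes were taken in blocks of 25, all 25 blocks of chromosome 11 had a median above 0, from 0.03 to 0.66, and 13 were at 0.3 or more. Of 393 blocks elsewhere, 173 (44.0%) were above 0, with a range from -0.43 to 0.43, and 4 were at 0.3 or more. Named genes of chromosome 11 fell in many of the lists above. Of 27 such genes, 20 were higher and 2 lower as measured, and 10 and 2 at like length. They include FTH1, MRPL21, RPLP2, NDUFS8, DHCR7, PSMD13, CTSD and MMP1. The 2 lower genes were AHNAK, a giant scaffold protein at 155 and 50.7 RPKM in the scramble and hairpin libraries, and the Notch coactivator MAML2 at 21.5 and 5.97 RPKM. Chromosomes 11 and 13 were singled out after the values of all chromosomes were seen. The part of chromosome position in the list counts was not tested.

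**Figure D5:**
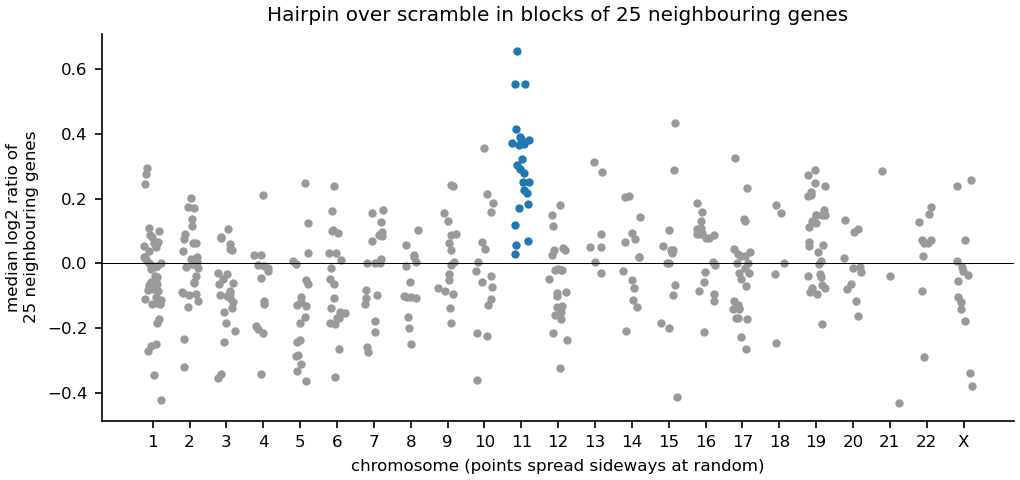
Median log2 ratio of hairpin over scramble in blocks of 25 neighbouring genes after comparison with genes of like length and GC content (vertical axis), by chromosome, with 1 point per block spread sideways at random. The 25 blocks of chromosome 11, in blue, lie between 0.03 and 0.66, and the grey blocks of the other chromosomes between -0.43 and 0.43.

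Markers of the cell line were present in both libraries, with pigment genes near absent. Of 24 melanocyte lineage genes, 13 were at 1 RPKM or more in the scramble library and 12 in the hairpin library, with a summed level of 585 and 635 RPKM. Of 13 measured, 2 were lower and 0 higher. SOX10, the lineage transcription factor, was at 288 and 336 RPKM, and the receptor ERBB3 at 142 and 89.7 RPKM. The pigment genes PMEL and MLANA were under 1 RPKM in both libraries, and TYR was listed at 0 in both. The summed levels of markers of other cell types were 20.02 and 26.1 RPKM for keratinocytes, 13.9 and 12.1 for fibroblasts, 36.2 and 43.4 for leukocytes, 2.11 and 1.44 for endothelium and 187 and 240 for neurons. Of these lists 3, 5, 2, 1 and 6 members were measured, and 0 were past 2-fold as measured. At like length 1 keratinocyte, 1 leukocyte and 1 neuronal member were lower, and 1 neuronal member was higher. The leukocyte sum was mostly CD68, a lysosomal protein at 32.5 and 39.8 RPKM, and CD3E was listed at 0 in both libraries. The neuronal sum was mostly TUBB3 at 162 and 203 RPKM, which melanoma lines also express. Some keratinocyte and fibroblast markers were expressed in the scramble and hairpin libraries. KRT10 was at 10.7 and 19.6 RPKM and KRT14 at 6.32 and 5.25, PDGFRB at 7.74 and 5.20 and LUM at 2.54 and 2.76. Of 12 keratinocyte markers, 6 were listed at 0 in both libraries, KRT1 and TP63 among them. Of 10 fibroblast markers, 4 were at 1 RPKM or more in the scramble library and 3 in the hairpin library. COL1A2, COL3A1 and the endothelial marker PECAM1 were below 1 RPKM in both. PMEL, MLANA, CD68 and the markers given as 0 or below 1 RPKM were named after their values were seen.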

How the data were processed

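RNA was measured in 4 libraries of A375, 1 per group, assigned from the sample titles. Poly(A) RNA was made into Ion Torrent libraries, per the labels' protocols. Alignment and quantification tools listed in the submitters' processing notes are Cufflinks 2.2.0, TopHat2 2.0.13, SAMtools 1.1 and Bowtie2 2.2.4, beside the hg19 build. The deposited values are RPKM for 23284 gene symbols, per the file headers. Which annotation they used is not given in the sources used here. No label says whether the libraries were prepared together.

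Ratios used a pseudocount of 1 RPKM, a minimum of 1 RPKM in either library and a threshold of 2-fold, in Python 3.11.15 with pandas 2.3.3, NumPy 2.4.6 and SciPy 1.17.1. No test was possible between single libraries. Transcript lengths were those of the longest GENCODE 29 transcript, matched by symbol for 20066 genes, by RefSeq synonym for 1451 and by older symbol for 23, with 1744 unmatched. Where RPKM × (length - 200 nt) of low values fell in steps, the step gave the depth, and for 63.2% to 70.5% of values of about 1 to 5 reads the nearest whole read was at most 0.1 away (20% by chance). The depth was the one with the clearest steps, so 20% understates chance. Steps were sought only in genes over 600 nt with a single annotated transcript. Reads of genes with several transcripts use the longest, and this length was not checked for them. At 2000 nt, 1 RPKM is 29.4 reads in the scramble library and 35.3 in the hairpin library. Read ratios have exact conditional (Clopper-Pearson) 95% intervals for genes of 400 nt or more.

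The 58 gene lists, the members and the rule for naming genes were chosen with earlier results of these data known. The rule took the title genes, the 12 highest and 12 lowest genes past 2-fold on 3 scales at 5 RPKM or more, up to 6 genes past 2-fold of each list with 3 or more such genes, the 2 most abundant genes of each list, and the 3 highest and 3 lowest small RNA genes of each class at 100 RPKM or more. Any other gene named is said to be. Of the lists, 1 is left out, as are some single genes, and they are not reported here. Alternatives were other pseudocounts, filters, scalings, controls and length windows.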

Additional observations from a re-analysis of the deposited data

How the results depend on the processing

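With 1 library per group the results hang on the scaling, the pseudocount and the choice of control, and no replicate could be left out. No paired analysis was possible because no group had a second library. The count of higher genes, 1340, ran from 867 with the common upper quartile to 1728 with a pseudocount of 0.1 RPKM, and that of lower genes, 1121, from 874 at 5 RPKM or more to 1761 with a pseudocount of 0.1 RPKM. At like length the counts ran from 611 to 1012 higher and from 649 to 1081 lower over the 7 alternatives for each. The MAGEA1 read ratio of 0.614 was 0.261 against the vector library and 0.616 as a ratio of RPKM. Of 245 named genes past 2-fold, 216 were still past it with the common upper quartile, 208 of 243 against the vector library, 226 of 244 against the mean of both controls and 153 at like length, and 0 changed sign. Some of these genes were named for passing at like length and against the vector library, or for large ratios in their list. Their counts were thus partly fixed in advance. Of all genes with a length, 553 of 1270 higher and 555 of 1086 lower as measured stayed so at like length. Genes under about 1 RPKM rest on some 30 reads or fewer for a transcript of 2000 nt, and the values of very short genes on an unknown number.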
